A study of Mus musculus and Rattus norvegicus with 6 samples.

Results

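The microRNAs miR-183, miR-96 and miR-182 are cut from 1 transcript that is made in photoreceptors and other sensory cells, and they are described here in the retinas of mouse and rat. Their rows were taken by name, as every mature name of miR-183, miR-96 or miR-182 on either arm. This gave 6 of the 1915 names in the mouse table and 5 of the 764 names in the rat table. The rat name miR-182, which carries no arm suffix, was set against mouse miR-182-5p, and no rat sequence of any member, either arm, was compared with the mouse sequence. The mouse name miR-182-3p has no partner in the comparison.

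A microRNA (miRNA) gene is transcribed into a long precursor, from which a hairpin is cut and then trimmed to a short duplex. Usually 1 strand of the duplex, from the 5p or the 3p side of the hairpin, is kept in the silencing complex, and the other is degraded. The kept strand finds messenger RNAs mainly through its seed (bases 2 to 8) and lowers their output. In the retina this cluster is among the most abundant miRNAs, its level is known to follow light, and its loss in mice harms photoreceptors. In the ear it is needed by hair cells.

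The groups were wild-type C57BL/6 mice and wild-type Sprague Dawley rats, all aged 9 weeks, with 3 retina libraries per species and no treatment. The mouse libraries are called m1, m3 and m4 and the rat libraries r1, r2 and r4. The extraction text of the labels names rat eyes for both species. The labels do not say that each library came from a separate animal, so p-values rest on a between-library spread that could be technical only. Each species was tabulated on its own, and strain and table change with the species, so these cannot be told apart.

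The mature sequences show how alike the 3 main products are. They are the mouse RefSeq entries (all 6 mouse names had one), written 5′ to 3′ with the seed in capitals (the prefix mmu marks a mouse name and is left out further on).

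mmu-miR-183-5p: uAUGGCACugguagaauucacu

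mmu-miR-96-5p: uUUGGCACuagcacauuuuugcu

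mmu-miR-182-5p: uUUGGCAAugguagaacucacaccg

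mmu-miR-183-3p: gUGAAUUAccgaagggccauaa

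mmu-miR-96-3p: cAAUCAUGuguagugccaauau

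mmu-miR-182-3p: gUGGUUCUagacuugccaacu

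The 3 main products have 3 different seeds. Counted from base 1 at the 5′ end and aligned there without gaps, the seed of miR-96-5p differs from that of miR-182-5p by C8A only and from that of miR-183-5p by U2A only. The seeds of miR-182-5p and miR-183-5p differ by U2A and A8C. Outside the seed it is miR-182-5p and miR-183-5p that are close: over 22 positions they share 18 bases, with C17U and A22U as the only further differences. In contrast, miR-96-5p shares 13 of 22 positions with miR-183-5p and 12 of 23 with miR-182-5p. Of 1679 mature mouse names in the RefSeq table, none other has the seed of miR-183-5p or miR-182-5p, and 1, miR-1271-5p, has that of miR-96-5p.

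The hairpins are shown because the ratios of their arms are compared further on. They are mouse RefSeq sequences on GRCm38.p6, 5′ to 3′ on the minus strand, with both mature arms in capitals (the 5p arm comes first).

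mir-183 (chr6:30169668-30169737): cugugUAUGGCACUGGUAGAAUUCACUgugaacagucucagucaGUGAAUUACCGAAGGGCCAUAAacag

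mir-96 (chr6:30169446-30169551): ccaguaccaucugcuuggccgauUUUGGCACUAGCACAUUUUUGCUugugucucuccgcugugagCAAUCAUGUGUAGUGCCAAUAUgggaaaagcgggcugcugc

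mir-182 (chr6:30165918-30165992): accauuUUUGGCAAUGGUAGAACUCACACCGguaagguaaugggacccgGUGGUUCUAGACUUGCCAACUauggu

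In the order of transcription mir-183 comes first, mir-96 follows after 116 bases and mir-182 after another 3453 bases. The whole cluster spans 3820 bases of mouse chromosome 6. In the mouse GENCODE M21 annotation only the 3 miRNA genes overlap this stretch, so no hairpin lies in an exon or intron of another annotated gene. The nearest protein-coding genes are Nrf1, which ends 12459 bases away on the other strand, and Ube2h, which lies 41551 bases away.

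Depth was 24169628 to 30514632 counts per library. At this depth the 95% Wilson interval of the share of any main product, or of the whole cluster, was at most 0.0199 percentage points wide to either side. Intervals cover counting error only, since reads without molecular identifiers are not independent molecules. Library r1 stood apart from r2 and r4: the chi-square per degree of freedom was 5084 and 4162 against these, while the other pairs of 1 species lay between 102 and 210. The 4 neural markers (miR-124, miR-9, miR-128 and miR-129) were present in both species, with a summed level of 82967 to 86509 CPM (counts scaled to a common library total, here of all counts) in mouse and 75283 to 107666 CPM in rat. The markers of lens and cornea, miR-184 and miR-205 (neither at 0), summed to 9374 CPM in r1, 1773 CPM in r2 and 1136 CPM in r4, and to 311 to 1249 CPM in mouse. The rat sum was nearly all miR-184 (mean 4083 CPM, against 11.1 CPM for miR-205), so it does not show how miR-205 stood in r1. Results that rest on r1 are given with and without it, and the part of lens or cornea RNA in them was not tested. In bulk retina, a smaller number of photoreceptors and less RNA per photoreceptor cannot be told apart.

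The main products stood at the top of both profiles, and their order was turned round between the species in every library. In mouse, miR-183-5p was the most abundant of all names and miR-182-5p the next, in m1, m3 and m4 alike. In rat, miR-182 ranked first and miR-183-5p second in r1, r2 and r4. The next name was far below: let-7f-5p at 7.05% ± 0.271 (SD, n = 3) of counts in mouse and miR-9a-5p at 6.63% ± 1.86 (SD, n = 3) in rat.

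**Figure D1:**
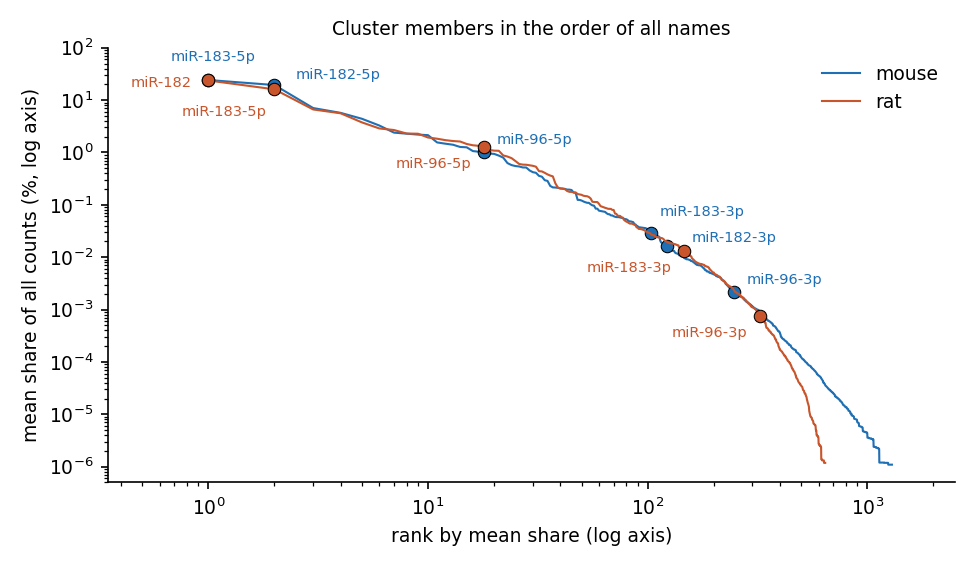
Mean share of all counts (%, log axis) against rank (log axis) for every name with a count, in mouse (blue) and rat (orange), with the cluster members as points. The members fall into a pair at ranks 1 and 2, miR-96-5p at rank 18 in both species, and the 3p arms between ranks 104 and 324.

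The 3 products of the single transcript differed widely in level. The third, miR-96-5p, held rank 18 by mean share in both species. In mouse its neighbours were miR-30c-5p at 1.03% ± 0.0183 and miR-204-5p at 0.954% ± 0.0962, in rat miR-127-3p at 1.34% ± 0.180 and let-7a-5p at 1.12% ± 0.280 (SD, n = 3 each). The ranges of these neighbours over the libraries overlapped that of miR-96-5p, so its place among them is not resolved. The 3p arms lay much lower, miR-183-3p at rank 104 in mouse and 146 in rat and miR-96-3p at rank 248 and 324. Mouse miR-182-3p was at rank 122.

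The share of miR-183-5p was lower in each rat library than in any mouse library. It made up 24.96% (m1), 24.1% (m3) and 23.6% (m4) of all counts in mouse, and 18.7% (r1), 14.6% (r2) and 14.9% (r4) in rat. The ranges did not overlap, and the exact two-sided permutation test gave p = 0.1, the smallest that 3 against 3 libraries allow. Of the 397 names whose scaled levels were tested further on, 62.2% did not overlap between the species.

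The share of miR-182-5p did not separate the species. It was 20.3% (m1), 18.3% (m3) and 19.6% (m4) in mouse, and the rat name held 29.2% (r1), 20.03% (r2) and 21.97% (r4). Library r2 lay below m1, so the ranges overlapped (exact two-sided permutation p = 0.2, n = 3 each). The rat mean rests largely on r1.

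For miR-96-5p the shares were 1.06% (m1), 1.04% (m3) and 0.956% (m4), and 0.994% (r1), 1.45% (r2) and 1.42% (r4). Libraries r2 and r4 lay above all mouse libraries and r1 within their range (exact two-sided permutation p = 0.3, n = 3 each). So in r1 the abundant pair was high and miR-96-5p was low, relative to the other rat libraries. On the log2 scale, the share in r1 differed from the mean of r2 and r4 by 0.34 for miR-183-5p and 0.48 for miR-182-5p, and by -0.53 for miR-96-5p.

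All rows of the cluster together held between 43.5% and 46.4% of counts in mouse and 48.8% (r1), 36.1% (r2) and 38.3% (r4) in rat. The rat range enclosed the mouse range, and no difference was detectable (exact two-sided permutation p = 0.4, n = 3 each). Without r1 the cluster share was 7.47 percentage points lower in rat, with no overlap (exact permutation p = 0.1, the smallest for 2 against 3).

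**Figure D2:**
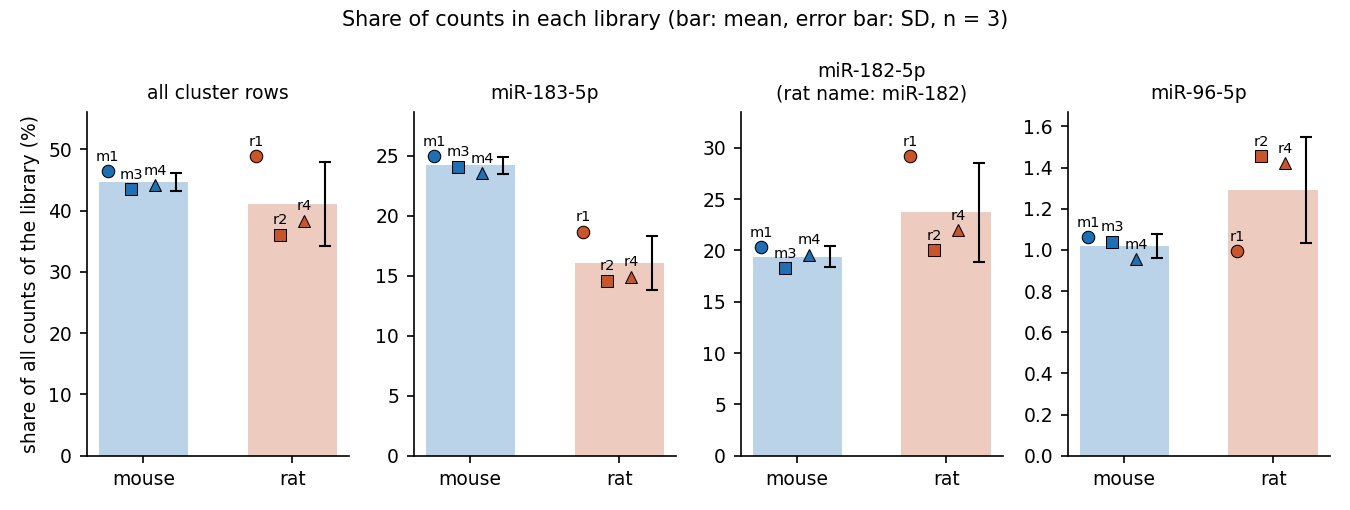
Share of all counts of a library (%) for the whole cluster and for each main product, with a point per library, bars for the mean and error bars for the SD (n = 3). The share of miR-183-5p is 23.6% or more in mouse and 18.7% or less in rat, while the other panels overlap and r1 lies apart from r2 and r4.

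Which product led the cluster differed between the species in every library. Within the counts of the cluster, miR-183-5p took 54.2% ± 1.10 (SD, n = 3) of the mouse counts and 39.2% ± 1.10 (SD, n = 3) of the rat counts. For miR-182-5p the values were 43.4% ± 1.20 and 57.5% ± 2.10 (SD, n = 3 each). Both separated the species without overlap, r1 included, since r1 (38.2% and 59.7%) stood beside r2 (40.4% and 55.5%) and r4 (39.0% and 57.3%). The exact permutation p was 0.1 for each, and 0.125 after Benjamini-Hochberg adjustment over the 5 products compared. Together both shares make up nearly all cluster counts, so they are not separate shifts. Lack of overlap was common, at 62.2% of all names tested (scaled levels) and 45.9% of the ratios tested below. The part of miR-96-5p was 2.28% ± 0.114 in mouse and 3.26% ± 1.07 in rat, with overlap through r1 (exact permutation p = 0.4, also adjusted; SD, n = 3 each).

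Ratios between products of 1 transcript within 1 library need no scaling between libraries, and they were tested with limma in 1 table with the arm ratios of all hairpins. For each count of miR-183-5p there were 0.814 (m1), 0.759 (m3) and 0.831 (m4) counts of miR-182-5p in mouse. In rat the values were 1.56 (r1), 1.37 (r2) and 1.47 (r4). All rat libraries lay above all mouse libraries. The log2 difference, rat minus mouse, was 0.87 ± 0.17 (SE; 95% interval 0.45 to 1.29, limma adjusted p = 0.0157).

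In this table of 172 ratios, 24.4% were called at an adjusted p under 0.05, 8.72% higher in rat and 15.7% lower, and 45.9% did not overlap between the species. Of the 3 ratios between main products, that of miR-182-5p to miR-183-5p was called. Its size was stable and its call was not: leaving out m1, m3, m4 or r4 gave log2 differences of 0.83 to 0.90 with limma adjusted p of 0.0600 to 0.0724.

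The ratio of miR-96-5p to miR-183-5p was 0.0426 (m1), 0.0431 (m3) and 0.0405 (m4) in mouse, and 0.0532 (r1), 0.0998 (r2) and 0.0951 (r4) in rat. Here too the rat libraries lay above the mouse libraries, but r1 lay nearer to mouse than to r2 and r4. The log2 difference of 0.92 ± 0.29 (SE; 95% interval 0.21 to 1.63) was not called (limma adjusted p = 0.0696). Without r1 it was 1.21 and called (limma adjusted p = 0.00180), in a table where 41% of ratios were called, 14.6% higher and 26.4% lower.

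Between miR-182-5p and miR-96-5p no shift was detectable. There were 19.1 (m1), 17.6 (m3) and 20.5 (m4) counts of miR-182-5p for each of miR-96-5p in mouse and 29.4 (r1), 13.8 (r2) and 15.5 (r4) in rat. The rat libraries lay on both sides of the mouse range. The log2 difference was -0.05 ± 0.33 (SE; limma adjusted p = 0.938), with a 95% interval of -0.84 to 0.75, so a sizeable shift either way is within the error.

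**Figure D3:**
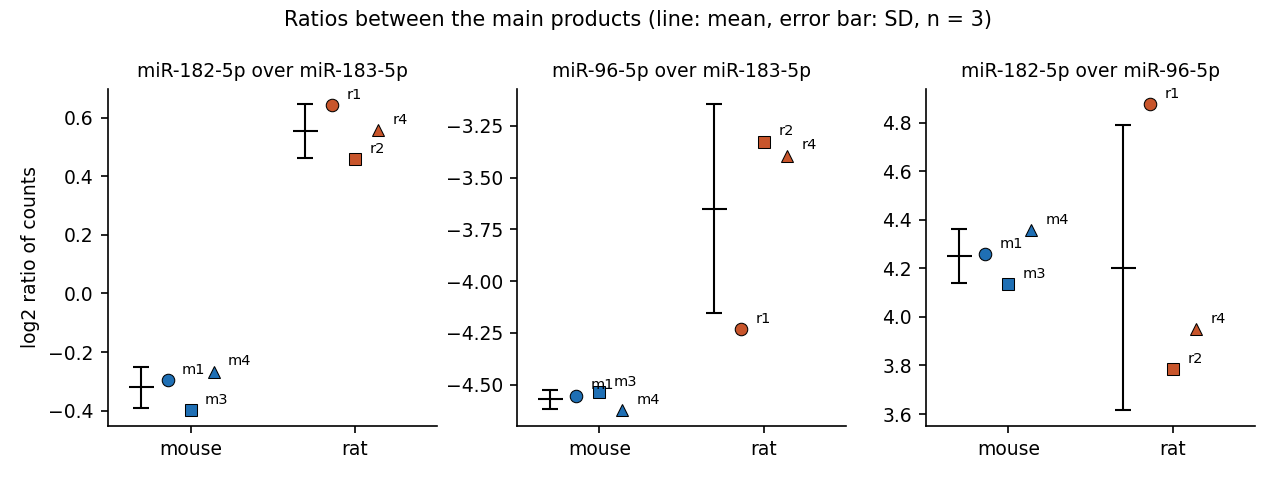
Log2 ratio of counts between pairs of main products, with a point per library, a line for the mean and error bars for the SD (n = 3). The ratio of miR-182-5p to miR-183-5p lies below 0 in mouse and above 0 in rat in each library, and in the other panels r1 stands apart from r2 and r4.

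Shifts of this size were also found between other neighbouring products. Among 140 pairs of hairpins on 1 strand within 10 kb of each other in the mouse genome, the median size of the log2 difference was 0.64, and 46.4% of pairs (27.9% higher in rat, 18.6% lower) were called when limma was fitted on these pairs alone. For 52 of the pairs the size exceeded that of miR-182-5p over miR-183-5p. Each hairpin was represented by its most counted name, after names from more than 1 hairpin were left out. This name can be a minor arm, as in miR-27a-3p over miR-24-2-5p (-1.09). The pairs are therefore not all between main products, unlike those of the cluster. The largest differences, such as miR-381-3p over miR-134-5p (-9.61), all include miR-381-3p. However, 108 of the pairs lie on chromosome 12 and many of them share products. Among the 29 pairs elsewhere that are not of the cluster the median size was 0.40, and 8 exceeded miR-182-5p over miR-183-5p. Products are shared among these 8 too, as miR-501-3p and miR-19a-3p each occur in more than 1 pair, so they are not separate shifts. In the fit on all pairs both miR-182-5p over miR-183-5p (limma adjusted p = 0.00170) and miR-96-5p over miR-183-5p (limma adjusted p = 0.0310) were called. On the 32 pairs outside chromosome 12, of which 37.5% were called (18.8% in each direction), both were called as well (limma adjusted p = 0.00171 and 0.0417). Both fits were chosen after seeing the data, and their pairs share products and are not independent.

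For the levels between species, counts of the 543 joined names were scaled by TMM, which sets library sizes by the bulk of names and not by the most abundant ones, and tested with edgeR. On this scale miR-183-5p had 301309 (m1), 275397 (m3) and 275598 (m4) CPM in mouse and 275895 (r1), 122010 (r2) and 130515 (r4) in rat. Only r1 reached the mouse range. The log2 difference was -0.69 ± 0.33 (SE; edgeR adjusted p = 0.119), which was not called. Without r1 it was -1.18 and called (edgeR adjusted p = 1.29e-07), where 70.6% of names were called, 36.1% higher and 34.5% lower. Without r2 it was -0.34 (edgeR adjusted p = 0.461), and without r4 -0.51 (edgeR adjusted p = 0.287).

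The TMM factor was 0.729 for r1 and 1.34 and 1.28 for r2 and r4, against 0.902 to 0.953 in mouse. With library totals in place of TMM, miR-183-5p was called lower in rat (-0.57, edgeR adjusted p = 0.0105), while the median difference of all names tested moved from 0.08 to 0.35. The call for miR-183-5p therefore depends on r1 and on the scaling of the libraries.

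On the TMM scale miR-182-5p had 245384 (m1), 208902 (m3) and 229102 (m4) CPM in mouse and 430831 (r1), 167654 (r2) and 191973 (r4) in rat. Library r1 lay above all mouse libraries and the other rat libraries below them. The log2 difference was 0.21 ± 0.36 (SE; edgeR adjusted p = 0.659). Without r1 the sign turned, to -0.35, and the difference was called (edgeR adjusted p = 0.00358), so no direction can be given for this level.

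Levels of miR-96-5p were close: 12828 (m1), 11878 (m3) and 11171 (m4) CPM in mouse and 14677 (r1), 12172 (r2) and 12417 (r4) in rat. The ranges overlapped (log2 difference 0.13 ± 0.14, SE; edgeR adjusted p = 0.488). Leaving out any library left it uncalled, at 0.03 to 0.30. While the scaled level of miR-183-5p in r1 was above the mean of r2 and r4 by 1.13 on the log2 scale and that of miR-182-5p by 1.26, miR-96-5p differed by 0.26.

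The 3p arms were the called members. With 356 (m1), 332.3 (m3) and 332.1 (m4) CPM in mouse and 135 (r1), 129 (r2) and 134 (r4) in rat, miR-183-3p was lower in rat without overlap, by -1.36 ± 0.11 on the log2 scale (SE; edgeR adjusted p = 3.82e-05). The other, miR-96-3p, had 25.5 (m1), 24.4 (m3) and 26.2 (m4) CPM in mouse and 5.50 (r1), 7.61 (r2) and 8.59 (r4) in rat, a log2 difference of -1.80 ± 0.19 (SE; edgeR adjusted p = 0.000216). These are low levels, with 90 counts in r1 at the least, a share of 0.000372% (95% Wilson interval 0.000303% to 0.000458%). The names were matched and not the sequences, so a difference between the mouse and rat 3p sequences cannot be told apart from one in level.

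In all, 2 of the 5 joined members were lower in rat, 0 were higher and 3 were not called. Over all 397 names tested 49.9% were called, 24.9% in each direction, and 62.2% did not overlap between the species, so the 2 called members of 5 are too few to set apart from this background. A log2 difference of at least the size of that of miR-183-3p was seen for 80 of the 397 names. The median log2 difference of the members was -0.69, against 0.08 for all names tested. This median is the value of miR-183-5p, which was not called. Below it lie the 3p arms, and above it miR-182-5p (0.21) and miR-96-5p (0.13), so it does not describe the cluster as a whole. With library totals, 105 names were higher and 44 lower (70.5% higher), against 99 and 99 (50.0%) with TMM.

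**Figure D4:**
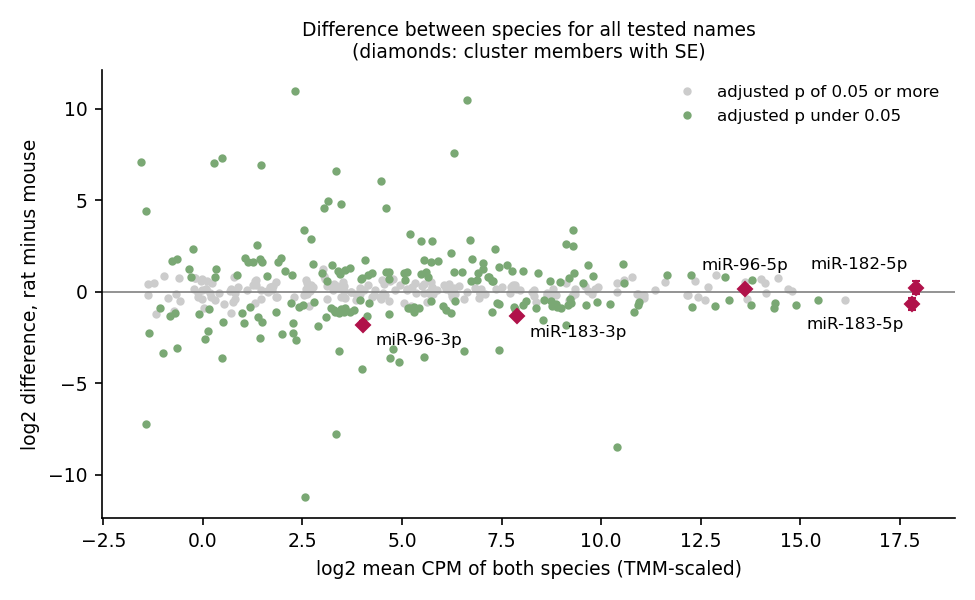
Log2 difference between rat and mouse against log2 mean CPM (TMM-scaled) for the 397 names tested, with called names in green and the cluster members as diamonds with their SE. The 3p arms lie below 0 at -1.36 and -1.80, and the 3 main products lie between -0.69 and 0.21 at the right edge of the plot.

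Within a hairpin, the 5p arm was the main product throughout. In mouse there were 847 (m1), 829 (m3) and 830 (m4) counts of miR-183-5p for each of miR-183-3p, and in rat 2041 (r1), 947 (r2) and 977 (r4). All rat libraries lay above all mouse libraries, r2 and r4 by little and r1 by far. The log2 difference was 0.57 ± 0.34 (SE; limma adjusted p = 0.290; 0.20 without r1, adjusted p = 0.163) and was not called.

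For miR-96 the arm ratio was called higher in rat. In mouse there were 502 (m1), 486 (m3) and 427 (m4) counts of miR-96-5p for each of miR-96-3p, and in rat 2668 (r1), 1600 (r2) and 1446 (r4). The rat values stood well clear of the mouse values, by 1.96 ± 0.28 on the log2 scale (SE; 95% interval 1.27 to 2.65, limma adjusted p = 0.00439). The call held in each fit with 1 library left out, at 1.69 to 2.13. As for the level of miR-96-3p, the rat sequence of this arm was not compared with that of the mouse. By size this was 18th of the 172 ratios. Over all hairpins the median log2 difference of the ratio of main to minor arm, rat minus mouse, was -0.09.

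The mouse hairpin of miR-182 was the most one-sided of the cluster, with 1255 (m1), 1079 (m3) and 1175 (m4) counts of the 5p arm for each of the 3p arm. Its 3p arm had 4511, 5169 and 4701 counts in these libraries. The order of one-sidedness in mouse was thus miR-182, miR-183, miR-96 in each library. In rat, miR-96 was more one-sided than miR-183 in each library. Ratios of main to minor arm were also high elsewhere: among 169 hairpins the median log2 ratio was 5.61 in mouse and 5.68 in rat, and 25 exceeded miR-183.

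Library r1 had the highest ratios in both hairpins. It lay above the mean of r2 and r4 by 1.09 on the log2 scale for miR-183 and 0.81 for miR-96. Over the 169 hairpins this gap had a median of 0.16 and quartiles of -0.60 and 0.99, so arm ratios in r1 differed both ways, and 36 hairpins had a larger gap than miR-183. The summed lens and cornea markers, nearly all miR-184, were also highest in r1 (9374 CPM), and their part in these ratios was not tested.

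**Figure D5:**
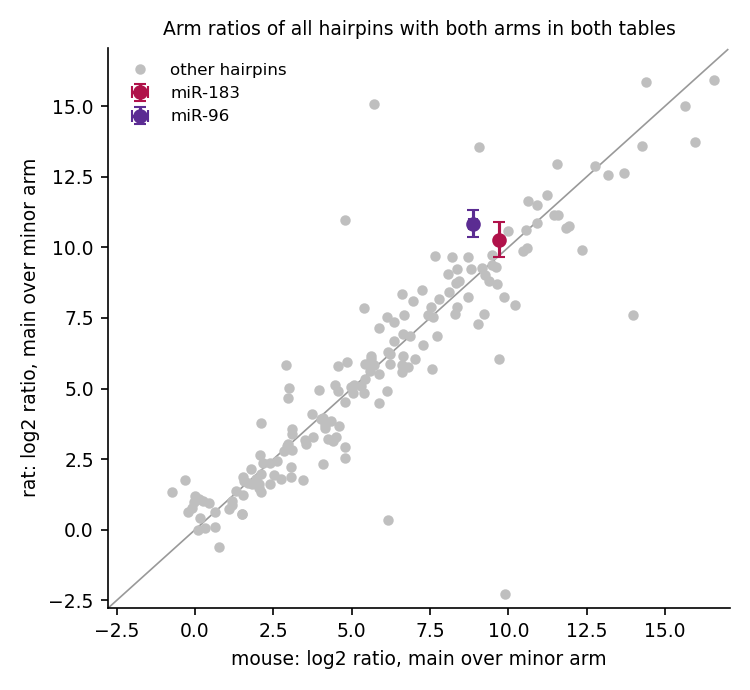
Log2 ratio of main to minor arm in rat against mouse (means over 3 libraries) for 169 hairpins, with miR-183 and miR-96 marked and error bars for the SD. The point of miR-96 lies above the diagonal by 1.96 and that of miR-183 by 0.57.

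The other miRNAs known to follow light in the retina are miR-204-5p and miR-211-5p, which are also abundant in pigment epithelium. Both of 2 were higher in rat, miR-204-5p by 0.62 ± 0.20 (edgeR adjusted p = 0.0362) and miR-211-5p by 0.79 ± 0.18 (SE; edgeR adjusted p = 0.00910), where 24.9% of all names were called higher. Without m1, m3 or m4 miR-204-5p was not called (0.54 to 0.67), nor was miR-211-5p without m3 (0.80). None of the 3 main products of the cluster was called higher beside them. Summed, the pair reached 13778 to 16134 CPM of all counts in mouse and 24512 (r1), 30822 (r2) and 26590 (r4) in rat, with no overlap. These sums are not TMM-scaled, and on the TMM scale 62.2% of all names tested did not overlap either. As a share of all counts the pair was lowest in r1 among the rat libraries, while the cluster share in r1 was the highest. Both are parts of 1 total, so a higher cluster share by itself lowers other shares. Nothing is drawn from this order.

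Among 8 listed names of the neural retina, 6 could be tested, since miR-9-5p (mouse) and miR-9a-5p (rat) are listed under different names. The test called 4 of them lower in rat and 0 higher, and left 2 uncalled (median log2 difference -0.67), where 24.9% of all names were called lower and the median was 0.08. The lower ones were miR-124-3p (-0.70 ± 0.14, adjusted p = 0.00503), miR-181a-5p (-0.63 ± 0.16, 0.0137), miR-181b-5p (-0.77 ± 0.17, 0.00713) and miR-128-3p (-1.09 ± 0.17, 0.00133; SE and edgeR adjusted p). With library totals only miR-128-3p of these was called lower and miR-129-5p was called higher (0.80, adjusted p = 0.00880), and miR-181a-5p was not called without m3 or without m4. The uncalled names were miR-7a-5p (-0.05) and miR-129-5p (0.72). Without r1, miR-7a-5p was called lower (-0.50, edgeR adjusted p = 5.67e-05) and miR-129-5p stood at 0.12, while without r2 miR-129-5p was called higher (1.10, edgeR adjusted p = 0.0414). As a share of all counts the summed neural list was lowest in r1 too, at 105925 CPM against 151662 CPM in r2 and 149476 CPM in r4. The cluster share, part of the same total, was highest in r1. On the scale of the tests, TMM factors of 0.729 (r1), 1.34 (r2) and 1.28 (r4) raise r1 against the others. The order is therefore one of unscaled shares only.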

How the data were processed

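For each species the authors deposited 1 table of raw read counts by mature miRNA name, per the file headers. How reads were trimmed and aligned, to which annotation, and how reads fitting more than 1 name were counted is not given in the sources used here. Columns (m1, m3, m4, r1, r2, r4) were assigned to a species only, since their numbers differ from the labels' replicate numbers. Names were joined exactly after removal of the species prefix (542), plus miR-182 with miR-182-5p (543).

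For levels, edgeR's quasi-likelihood test (version 4.0.16, R 4.3.3) compared the species over 397 names, after filterByExpr and TMM. Ratios were tested with limma 3.58.1 on log2((a + 0.5)/(b + 0.5)), for hairpins with at least 50 counts of both arms summed in every library, joined by the 3 product ratios. Calls use a Benjamini-Hochberg adjusted p under 0.05 over the whole table. Single shares were compared by exact two-sided permutation over libraries. DESeq2 1.42.0 was an alternative. The scripts were tested on simulated data. The text names every member, its neighbours in rank, names sharing a seed, the 3 names most alike per main product, and listed miRNAs. Members, lists and tests were chosen with earlier results of these data known. Sequences and positions come from RefSeq and GENCODE M21 (mouse, GRCm38).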

Additional observations from a re-analysis of the deposited data

How the results depend on the processing

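No paired analysis was possible because the columns carry no replicate number of the labels. Of 296 alternative values, 256 kept their direction and side of the threshold (counts: stayed within 1.5 times). The shares among these were judged by direction only. Their exact permutation p cannot fall below 0.1, so they could not cross the threshold. With library totals, 44 names were lower in rat in place of 99, and miR-7a-5p stood at 0.078 in place of -0.05, not called in either. The ratio of miR-96-5p to miR-183-5p was called with a pseudocount of 5 (0.92, limma adjusted p = 0.0496), with array weights (1.17, 0.00116) and with the spread of neighbouring hairpins (0.92, 0.0310; 0.92, 0.0417 outside chromosome 12; both chosen after seeing the data). With array weights 24 ratios were higher and 45 lower in rat, in place of 15 and 27. The cause of these changes was not tested.

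With 1 library left out, 77 to 150 names were higher and 78 to 143 lower, the most without r1. Ratios higher were 9 to 26 and lower 17 to 47, again the most without r1; 9 were higher without m3, and 17 lower without m1, m3 or m4. Log2 differences ran from 0.83 to 0.92 (miR-182-5p over miR-183-5p), 0.76 to 1.21 (miR-96-5p over miR-183-5p) and -0.38 to 0.16 (miR-182-5p over miR-96-5p, above 0 at 0.0062 without m4, 0.16 without r2 and 0.079 without r4). The level of miR-182-5p ran from -0.35 to 0.59 and that of miR-7a-5p from -0.50 to 0.28 (0.28 without r2, 0.12 without r4). The cluster share ran from -7.47 to -1.09 percentage points. The direction of miR-183-3p and miR-96-3p and their calls held in every alternative run. Depth bears most on miR-96-3p, with 90 to 652 counts per library.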

Other observations

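The names most like each main product in level across the 6 libraries were found among 133 other tested names of at least 100 CPM, by the root mean square difference of centred log2 CPM. For miR-183-5p they were let-7f-5p (0.15), miR-674-3p (0.15) and miR-1839-5p (0.15), against a median of 0.61 over all candidates. For miR-182-5p they were miR-106b-3p (0.12), miR-7a-5p (0.14) and miR-342-3p (0.19; median 0.52), and for miR-96-5p they were miR-146b-5p (0.06), miR-423-5p (0.08) and miR-330-5p (0.11; median 0.39). No main product was among the 3 names most like another. The names nearest to miR-183-5p and miR-182-5p were also high in r1, by 0.73 to 1.18 on the log2 scale over the mean of r2 and r4, while those nearest to miR-96-5p were higher by 0.27 to 0.44. The names were picked by likeness over all 6 libraries, r1 included, so these values follow from the choice. These are descriptions over 6 libraries that share depth and scaling, with no test.

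Marker miRNAs of other tissues were also present in these libraries. Red blood cell markers (miR-451, miR-144 and miR-486) summed to 104 to 110 CPM of all counts in mouse and 162 to 295 CPM in rat. Of these only miR-486 was higher in rat by mean (miR-486a-5p at 94.7 CPM in mouse, miR-486 at 237 CPM in rat). Lower by mean were miR-451 (miR-451a at 10.7 CPM in mouse, miR-451-5p at 2.01 CPM in rat) and miR-144-3p (0.704 and 0.419 CPM). The names of miR-486 and miR-451 differ between the species, so they were not joined or tested. Leukocyte and microglia markers were at 1.11 to 1.80 CPM in mouse (2 names) and 6.08 to 12.4 CPM in rat (3 names). Skeletal muscle markers (3 names in each table) were at 642 to 883 CPM in mouse, mostly miR-1a-3p at 750 ± 119 (SD, n = 3), and 44.3 to 66.9 CPM in rat. The rat sum leaves out rat miR-1b, which held 0.0306% of rat counts, so these sums cannot be compared. The mouse mean of miR-206-3p was 17.7 CPM, below its rat mean of 29.3 CPM. Vessel markers were at 4159 to 4978 CPM in mouse (2 names) and 7510 to 7947 CPM in rat (3 names). None of these names was at 0 in all libraries of a species, sums over different numbers of names are not comparable, and their part in the results was not tested.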
